A study of Mus musculus with 7 samples.

Results

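Granulosa cells of growing follicles were taken from the single-cell library of mouse ovaries at P5, postnatal day 5, as 600 of its 6519 called cells and of the 52542 cells of the whole series. A cell was counted in when it had at least 1000 detected genes and at least 2 unique molecular identifiers (UMIs, 1 per captured transcript) of Amh, Nr5a2 and Hsd17b1 together, with no Gng13, at most 1 Upk3b, no Pax8 and at most 3 UMIs of the germ cell genes Dazl and Ddx4. The members were therefore chosen by measured values, and the levels of these 8 genes are given as a description only. The series holds 7 libraries, 1 at each of 5 embryonic ages from E11.5 to E18.5 and at P1 and P5, each from pooled gonads of untreated wild-type C57BL/6J mice that were dissociated with trypsin, for the longest time at P1 and P5. An age is thus 1 sample with no replicate, no test between cells was made, and all intervals are 95% intervals of counting error only.

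Granulosa cells surround the oocyte and feed it through gap junctions, and they respond to pituitary follicle-stimulating hormone. In the mouse, the first follicles to grow lie in the inner part of the ovary, the medulla, while the outer part, the cortex, keeps dormant primordial follicles with flat pregranulosa cells. Once a follicle starts to grow, its granulosa cells become cuboidal, divide and make anti-Mullerian hormone, inhibins, activins and steroid-converting enzymes. Position in the ovary was not measured here, so that growth of the follicle is a label taken from the marker genes.

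Of the 5310 P5 cells with at least 1000 genes, 691 had 2 or more UMIs of the 3 marker genes. The absence of Gng13 removed 86 of them, Pax8 removed 3, and the germ cell genes removed 2. The 600 cells left were 11.3% (10.5 to 12.2) of the cells with 1000 genes and 9.76% (9.03 to 10.5) of the 6150 cells with at least 200 genes. They held 6332002 UMIs, with a median of 9545 UMIs per cell. The other somatic cells, 4651 cells with at most 3 germ cell UMIs, had a median of 6652 UMIs, and 30.3% of them were stroma and 6.08% the Gng13-positive granulosa cells described next.

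Gng13-positive granulosa cells were taken as a second kind of granulosa cell. They were 283 cells under the same limits on Upk3b, Pax8 and germ cell genes, with at least 2 UMIs of Gng13, a G protein subunit that marked the cortical pregranulosa cells in this series, and at most 1 UMI of the 3 marker genes (median 8004 UMIs). Stroma was taken as 1407 cells without Gng13, with at most 1 UMI of the marker genes, of Rgs5 and of the endothelial genes, and with at least 3 UMIs of Nr2f2, Pdgfra and Tcf21 together (median 5915 UMIs). Levels are in CPM, the share of a gene among the pooled UMIs of a class multiplied by 1000000, and a gene was measured in a comparison if both classes together had at least 50 UMIs of it. A gene is called higher or lower where its CPM ratio was 2 or more, or 0.5 or less.

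Of the P5 barcodes, 306 were also present in another library, 24 of them members. The libraries shared 53 barcodes (P1), 98 (E14.5), 66 (E11.5), 51 (E18.5), 42 (E12.5) and 0 (E16.5) with P5.

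The 3 genes that chose the cells were not all detected in each of them. Amh, the gene of anti-Mullerian hormone, had a UMI in 421 of the 600 cells, with a maximum of 30 UMIs in a cell. Nr5a2, a nuclear receptor needed in granulosa cells for ovulation, had one in 481 cells. Hsd17b1, an enzyme that converts estrone to estradiol, had one in 302 cells. All 3 genes were seen together in 157 cells, Amh with Nr5a2 in 159, Nr5a2 alone in 89, Nr5a2 with Hsd17b1 in 76, Amh with Hsd17b1 in 55, Amh alone in 50 and Hsd17b1 alone in 14. Amh lies at chr10:80805243-80807648, Nr5a2 at chr1:136842571-136960448 and Hsd17b1 at chr11:101078411-101080527 of GRCm38.

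At the edge of the rule, 167 cells had a sum of exactly 2 UMIs, and 347 cells that met every other limit stood just outside it with a sum of 1. Inha, the inhibin alpha subunit, was at 446 CPM in the cells just outside, at 725 CPM at a sum of 2, at 1040 CPM at a sum of 3 or 4 and at 1530 CPM in the 234 cells with a sum of 5 or more. Foxl2, the transcription factor that maintains the granulosa identity, was at 363 CPM just outside and at 417, 382 and 344 CPM in the same order. The level of Inha thus formed a gradient through the limit, while Foxl2 did not. Median depth rose alike, from 7729 UMIs just outside to 8310, 9218 and 11508 UMIs inside, and Col1a1, a collagen of the stroma, went the other way, from 184 CPM just outside to 98.1, 36.8 and 39.1 CPM. Between sums of 5 or more and of 2, a split on the genes of the rule, 27 of 32 measured division genes were higher (all measured genes 2.97%) and 9 of 13 interstitial matrix and 4 of 7 stroma genes lower (all measured genes 2.4%). All 3 measured cortical pathway genes were also lower, and 2 of 4 erythroid genes higher, and the part of depth or of these genes in the gradient was not tested.

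The label was then compared with the markers that the rule did not use. Inha (chr1:75507077-75510366) was at 1187 CPM (1160 to 1214) in the members, 151 CPM in the other somatic cells, 179 CPM in the Gng13-positive cells and 23.0 CPM in stroma. Esr2 (chr12:76120419-76177259), the estrogen receptor beta typical of granulosa cells, was at 86.2 CPM (79.1 to 93.8), against 19.8, 12.4 and 9.59 CPM in the same classes. Both markers thus stood highest in the members among these classes.

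A UMI of Inha was found in 97.0% of members, 54.8% of Gng13-positive cells and 15.7% of the 140 immune cells, which should lack the gene (median depths 9545, 8004 and 7808.5 UMIs). After each cell was thinned to 3000 UMIs, these shares were 87.4%, 31.4% and 8.15%. The share of immune cells gives the background of free RNA in the droplets, and both the members and the Gng13-positive cells stood above it. Esr2 had a UMI in 50.5% of members and 2.86% of immune cells, or 21.8% and 0.741% after thinning. Of the immune cells 3 also met the rule for members, and they were kept in both classes.

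**Figure D1:**
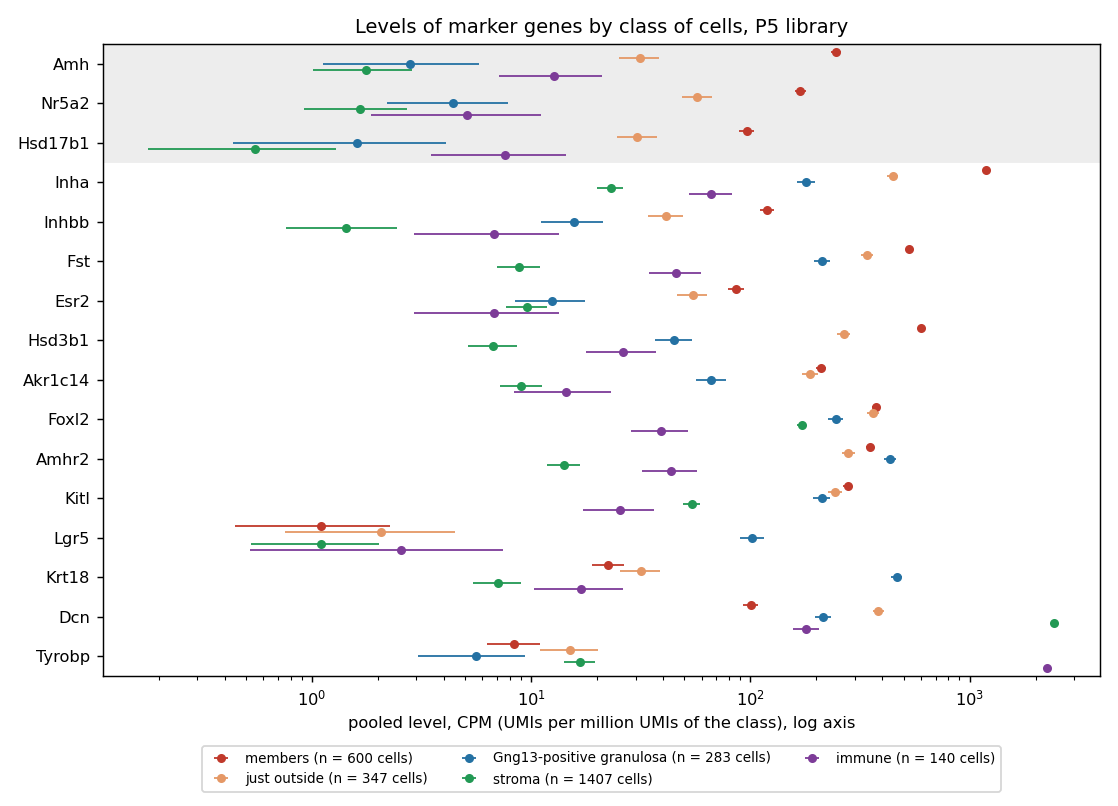
Pooled levels in CPM (log axis) of 16 genes in 5 classes of P5 cells, with 95% Poisson intervals, where members are the 600 granulosa cells of growing follicles and the grey band holds the 3 genes that chose them. Inha, Inhbb, Esr2 and Hsd3b1 lie highest in the members, with the cells just outside the rule between them and the Gng13-positive cells, whereas Lgr5 and Krt18 lie highest in the Gng13-positive cells.

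The available RefSeq promoters of these genes were searched on both strands, over the 250 bases before each start site, for AAGGTCA, the half-site of NR5A receptors, for the estrogen response element (GGTCA and TGACC with any 3 bases between them), and for AGATAA, the letters bound by GATA factors. The promoters of Amh and Hsd17b1 were not analysed here. The letters were absent from these windows of Inha, Inhbb, Esr2, Fshr and Foxl2 and from the second start site of Nr5a2. The window of Inha (chr1:75507359-75507608, plus strand) lay inside the gene positions given above. The bases before the start of those positions were therefore not searched, and nothing is read from the absence there. The first start site of Nr5a2 (chr1:136960449-136960698, minus strand, GRCm38.p6) held the GATA letters at 2 places. It is shown because Nr5a2 was found in the most members among the 3 genes that chose them, with TTATCT, the reverse complement of AGATAA, in capitals at positions -217 to -212 and -200 to -195 from the start site:
Nr5a2 promoter, first start site: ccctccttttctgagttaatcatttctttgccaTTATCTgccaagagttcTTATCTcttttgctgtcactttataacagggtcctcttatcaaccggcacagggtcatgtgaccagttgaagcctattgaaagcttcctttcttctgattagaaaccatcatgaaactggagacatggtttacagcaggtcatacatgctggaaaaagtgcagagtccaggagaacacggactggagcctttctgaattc
At least 1 match of AGATAA was present in 9.99% of all 32851 promoters, AAGGTCA in 4.08% and the estrogen response element in 0.0639%, so that the match is a description of this window. Gata4 and Gata6, the GATA factors of the gonad, were at 75.0 and 184 CPM in the members and at 93.3 and 177 CPM in the Gng13-positive cells, neither 2-fold apart.

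Against all other somatic cells, 503 of 13149 measured genes were called higher in the members, or 3.83% of them, and 2103 were called lower, or 16%. The median log2 ratio over all measured genes was -0.02. Without the filter on low counts, 1431 genes were higher and 2791 lower. Outside the genes of the rule the 4 highest ratios among genes of at least 50 CPM belonged to Hsd3b1, Inha, Slc18a2 and Cacna2d2. Hsd3b1, which makes progesterone and other delta-4 steroids, was 7.92-fold higher (7.54 to 8.33), at 602 against 76.0 CPM. Slc18a2, the vesicular monoamine transporter, was 7.59-fold higher, at 168 against 22.1 CPM. Inhbb, the beta B subunit of inhibin and activin, was 7.20-fold higher (6.45 to 8.04), at 119 against 16.6 CPM. Calb1, a calcium-binding protein, Tnni3, a troponin of cardiac muscle, and Apoa1, the main protein of high-density lipoprotein, were between 5.91- and 6.29-fold higher.

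Of 29 measured genes of inhibin, activin and BMP signalling, 4 were higher and 4 lower, beside 3.83% and 16% of all measured genes. Their median log2 ratio was -0.01, beside -0.02 for all genes. Those called higher were the subunits Inha and Inhbb, an antagonist and an intracellular mediator. Fst, the activin-binding follistatin, was 3.62-fold higher, at 530 CPM, and Smad3, which carries the activin signal to the nucleus, was 2.11-fold higher, at 137 CPM. Of the receptors, Acvr1 and Tgfbr2 were lower. Amhr2, the receptor of anti-Mullerian hormone, was at 350 CPM in the members and 193 CPM in the other somatic cells, a ratio of 1.82. Id2 and Id4, targets of BMP signals, were called lower, at 31.3 against 356 CPM and 2.84 against 30.6 CPM. Id1, of the same family, was not, at 64.6 against 53.3 CPM, a ratio of 1.21 (1.09 to 1.35).

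In steroid synthesis, 5 of 12 measured genes were higher and 1 was lower, beside 3.83% and 16% of all measured genes. The median log2 ratio was 0.70, beside -0.02 for all genes. Besides Hsd3b1, the higher genes included Akr1cl at 2553 CPM (3.18-fold), Akr1c14 at 210 CPM (3.45-fold) and Hsd17b7 at 33.5 CPM (3.29-fold). The latter code for ketosteroid reductases or their close relatives. Star, which moves cholesterol into mitochondria, was lower, at 5.37 against 11.6 CPM.

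The gonadotropin receptors Fshr and Lhcgr and the enzymes Cyp19a1 and Cyp11a1 were near the lower limit of detection. Fshr, the receptor of follicle-stimulating hormone, had 18 UMIs in all the members, or 2.84 CPM (1.68 to 4.49), and was seen in 2.83% of them. It was seen in 0 of 283 Gng13-positive cells, which allows a share of cells with a UMI of up to 1.06%, and in 0 of 140 immune cells, which allows up to 2.14%. Cyp19a1, the aromatase that makes estrogens from androgens, had 34 UMIs, or 5.37 CPM, and was seen in 4.83% of members, 0 of the Gng13-positive cells and 0.714% of the immune cells. In the other somatic cells, Fshr was at 0.142 CPM (0.0462 to 0.332) and Cyp19a1 at 0.370 CPM (0.197 to 0.632), so that the members stood 20.0-fold (7.15 to 68.9) above them for Fshr and between 7.47- and 30.0-fold for Cyp19a1, although both genes had under 50 UMIs in all and are not among the measured genes. After thinning, Fshr was left in 1.01% and Cyp19a1 in 0.503% of members, and no change is read from these thinned shares. Cyp11a1, which starts steroid synthesis from cholesterol, and Lhcgr, the receptor of luteinizing hormone, had 4 and 7 UMIs in the 600 cells.

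Of 21 measured cholesterol synthesis genes, 2 were higher than in the other somatic cells, beside 3.83% of all measured genes. The median log2 ratio was 0.45, beside -0.02 for all genes. Against stroma 11 of 20 were higher, with a median of 1.07 where all genes had 0.04. Fdps, which makes farnesyl pyrophosphate, was at 119 CPM in the members, 49.8 CPM in the other somatic cells and 20.1 CPM in stroma. Against stroma, 1329 of 11056 measured genes were higher (12%) and 1480 lower (13.4%), or 2632 and 2575 genes without the filter on low counts. Against the Gng13-positive cells none of the 20 measured cholesterol genes was higher and 1 was lower, with a median of -0.05. Of all measured genes 5.7% were higher and 6.75% lower in that comparison.

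Among the genes of the dialogue with the oocyte, 3 of 15 were higher and 4 lower than in the other somatic cells, beside 3.83% and 16% of all measured genes. Gja1, the connexin 43 that couples granulosa cells with each other, was at 224 CPM, 2.57-fold above the other somatic cells and 4.27-fold (3.57 to 5.15) above the Gng13-positive cells. Kitl, the ligand of the oocyte receptor Kit, was at 279 CPM and 2.19-fold above the other somatic cells, but at 212 CPM in the Gng13-positive cells, a ratio of 1.32. Nppc, the natriuretic peptide that holds oocytes in meiotic arrest, was at 35.8 CPM (31.3 to 40.8), 6.03-fold above the other somatic cells and 11.2-fold (5.58 to 26.2) above the Gng13-positive cells. Gja4, the connexin of the oocyte side, and Has2, which makes hyaluronan, had 13 and 0 UMIs in the members.

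Of 25 measured transcription factors and nuclear receptors, 2 were higher and 8 lower than in the other somatic cells, beside 3.83% and 16% of all measured genes. Foxo1, a forkhead factor active in granulosa cells of growing follicles, was at 82.9 CPM, 2.09-fold higher. Foxl2 was at 373 CPM (358 to 388) against 215 CPM, a ratio of 1.73, and Wt1 and Gata4, shared by the somatic cells of the gonad, had ratios of 1.09 and 1.14. Tcf21 and Nr2f2, factors of the stroma, were lower, at 2.53 against 62.5 CPM and 28.7 against 149 CPM. Estrogen receptors differed in direction, with Esr1 at 18.6 against 37.9 CPM, a ratio of 0.492.

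The comparison with the Gng13-positive granulosa cells set 2 kinds of granulosa cell of the same library side by side. Of 9822 measured genes, 560 were called higher in the members (5.7%) and 663 lower (6.75%), and the median log2 ratio was 0.01. These counts were 341 and 340 after thinning to 3000 UMIs, and 1064 and 2425 without the filter on low counts. Among genes of at least 50 CPM outside the rule, the highest ratio was that of Akr1c18, which inactivates progesterone, with 317 UMIs in the members and 4 in the Gng13-positive cells (50.1 against 1.60 CPM, a 31.2-fold difference, 12.1 to 115). Col8a1, a short-chain collagen, followed with a 16.6-fold and Slc18a2 with a 13.5-fold difference. Hsd3b1 differed 13.4-fold (11.1 to 16.3), at 602 against 44.9 CPM. Inhbb, Esr2 and Inha differed 7.64-, 6.94- and 6.61-fold.

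At the lower end, the first 4 genes were Lgr5, Pcp4, Spon1 and Mt2. Lgr5, an R-spondin receptor, had 7 UMIs in the members and 254 in the Gng13-positive cells, or 1.11 against 102 CPM, a 92.0-fold difference (44.0 to 231). It was seen in 1.17% of members, 41.3% of Gng13-positive cells and 0.714% of immune cells, so that the share in the members was near the background. The epithelial keratins Krt7, Krt18 and Krt19 were 34.2-, 20.8- and 19.9-fold lower, and the cell adhesion gene Epcam 32.1-fold lower. The 7 surface epithelium genes summed to 995.6 CPM in the Gng13-positive cells, 550 CPM in the other somatic cells and 94.8 CPM in the members, and the part of surface epithelial cells in these differences was not tested. The metallothioneins Mt1 and Mt2 were at 80.1 and 14.4 CPM against 1148 and 547 CPM. H19, an imprinted noncoding RNA, was at 30.3 against 520 CPM, and Aldh1a2, which makes retinoic acid, at 23.7 against 266 CPM.

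With the genes of the rule left out, 4 cortical pathway genes named by the study were listed, Lgr5, Aldh1a2, Gpc3 and Lhx9. All 4 were lower than in the Gng13-positive cells, beside 6.75% of all measured genes, with a median log2 ratio of -2.86. Of the 14 listed medullary pathway genes, again without those of the rule, 3 were higher (Akr1c14, Hsd17b7 and Esr2) and 2 were lower (Rspo1 and Bmp2). The median of these 14 was 0.19, and 5.7% of all measured genes were higher and 6.75% lower. Rspo1, a Wnt-enhancing secreted protein, was at 35.5 against 138 CPM. Both lists were chosen by the study on these cells and are not independent evidence of their direction. Of 15 measured Wnt genes, 5 were lower and none higher, beside 6.75% and 5.7% of all measured genes. Among the lower genes, Axin2, a common target of Wnt signals, was at 10.3 against 79.7 CPM. Lef1, a transcription factor of Wnt signals, was at 0.948 against 18.4 CPM. Of the Notch genes 3 of 9 were lower, Notch1, Notch2 and Nrarp, and none was higher, beside 6.75% and 5.7% of all measured genes.

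**Figure D2:**
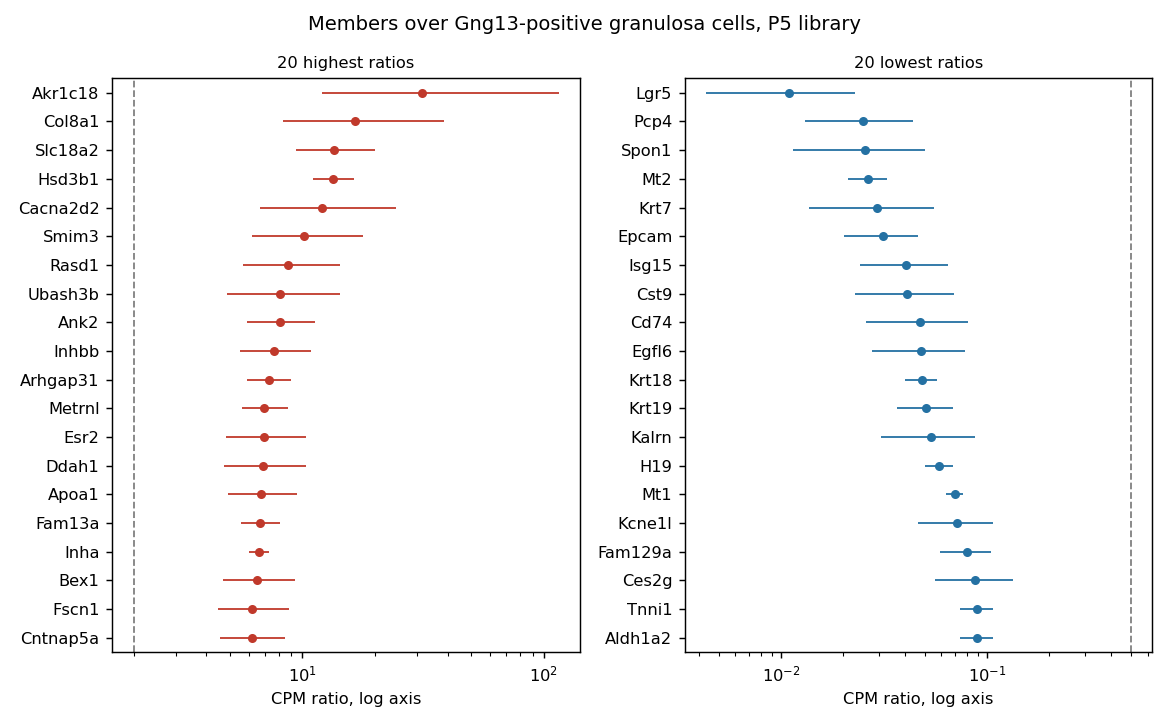
CPM ratio of the 600 members over the 283 Gng13-positive granulosa cells (log axes) with 95% counting intervals, for the 20 genes with the highest and the 20 with the lowest ratio among genes of at least 50 CPM in the higher class, without the genes of the rule. Dashed lines mark a ratio of 2 on the left and 0.5 on the right, and all intervals shown lie beyond them, from Akr1c18 at 31.2 to Lgr5, 92.0-fold lower.

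Cell division genes separated the 2 granulosa classes but not the members from the somatic cells as a whole. Of 35 genes, 19 were higher than in the Gng13-positive cells, beside 5.7% of all measured genes, and none lower, with a median log2 ratio of 1.07. Against the other somatic cells 0 were called, beside 3.83% higher and 16% lower of all measured genes, with a median of -0.01. Against stroma 5 of 35 were lower and none higher, beside 13.4% and 12% of all measured genes. Top2a, which untangles replicated DNA, was at 133 CPM in the members, 53.3 CPM in the Gng13-positive cells, 158 CPM in the other somatic cells and 285 CPM in stroma. The mitotic genes Hmmr and Cdc20 were 5.73- and 4.11-fold above the Gng13-positive cells. Rrm1, a subunit of ribonucleotide reductase, was at 54.0 CPM in the members and 54.1 CPM in the Gng13-positive cells.

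Counted by cell after thinning to 3000 UMIs, 160 of 597 members (26.8%, 23.3 to 30.5) had at least 3 UMIs of the division genes. The share was 24.7% (23.5 to 26.0) in the other somatic cells, with an interval that overlaps that of the members, and 40.5% (25.6 to 56.7) in the 42 endothelial cells deep enough. It was 12.7% (9.07 to 17.2) in the Gng13-positive cells, 13.8% (10.3 to 18.0) in the cells just outside the rule, 13.3% (8.10 to 20.3) in immune cells and 35.2% (32.7 to 37.8) in stroma. Unthinned, the shares were 52.2% in the members, 46.3% in the other somatic and 63.6% in the endothelial cells, and 47.7, 34.9, 30.7 and 53.8% in the last 4 classes. Ccnd2, the D-type cyclin of granulosa cells, was at 1904 CPM (1870 to 1938), 2.04-fold above the other somatic cells and 1.57 times the 1213 CPM of the Gng13-positive cells. Ccnd1 went the other way, at 20.5 against 123 CPM in the Gng13-positive cells. The cycle inhibitor Cdkn1b was at 140 against 229 CPM there, within 2-fold, and Cdkn1a and Cdkn1c were lower.

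**Figure D3:**
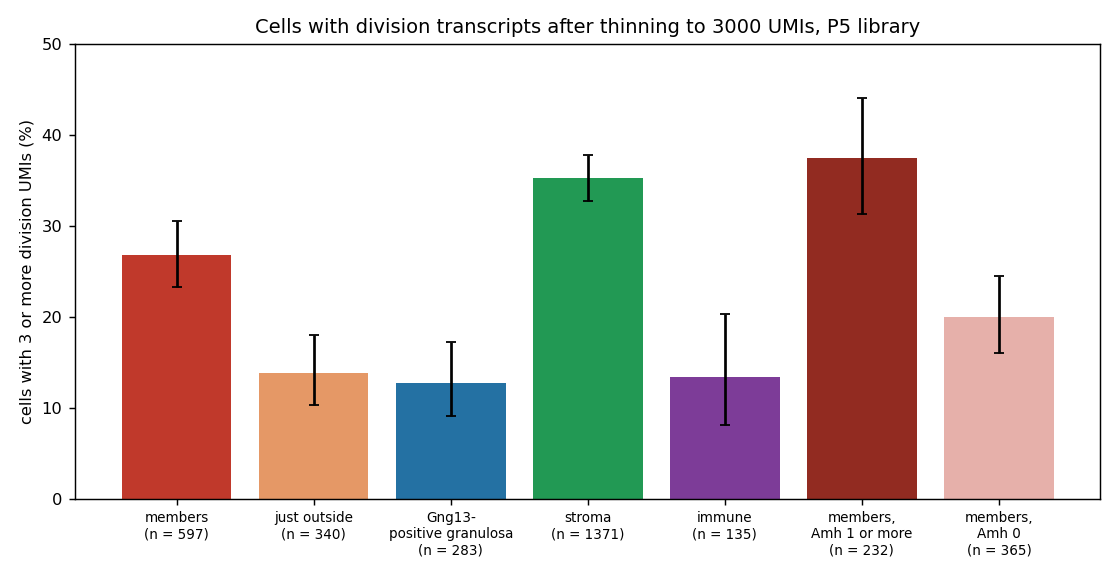
Percentage of cells with at least 3 UMIs of 35 division genes after each cell was thinned to 3000 UMIs, with 95% binomial intervals and the number of cells, by class and, for the members, by whether a UMI of Amh was left after thinning. The members (26.8%) lie between the Gng13-positive granulosa cells (12.7%) and stroma (35.2%), and members with Amh (37.5%) lie above those without (20.0%), a split on a gene that chose the members.

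Most interstitial matrix genes were lower in the members than in the other somatic cells and stroma, while against the Gng13-positive cells 5 of 16 interstitial matrix and 4 of 15 basal lamina genes were lower, beside 6.75% of all measured genes. Of 17 genes of the interstitial matrix, 15 were lower than in the other somatic cells, beside 16% of all measured genes. The list had a median log2 ratio of -3.05. Against stroma 16 were lower, beside 13.4% of all measured genes. Col1a1, the main collagen of connective tissue, was at 52.3 CPM in the members and 1219 CPM in stroma, and Dcn, a collagen-binding proteoglycan, at 100 and 2424 CPM. Fbn2, an elastic microfibril protein, stood apart at 245 CPM, with a ratio of 1.43 to the other somatic cells and 1.38 to stroma. Of 17 basal lamina genes, 2 were higher than in the other somatic cells and 8 lower, beside 3.83% and 16% of all measured genes. Lama1, a laminin chain of early basement membranes, was at 49.9 against 22.0 CPM and Col18a1, the source of endostatin, at 346 against 152 CPM. The collagen IV chains Col4a1 and Col4a2 were lower, at 61.9 against 147 CPM and 66.5 against 138 CPM. Sparc, a collagen-binding protein and the most abundant gene of this list, was at 1172 CPM in the members and 2227 CPM in the other somatic cells, within 2-fold.

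Of 11 IGF genes, 6 were lower than in the other somatic cells, beside 16% of all measured genes, and none was higher. Against the Gng13-positive cells only Irs1 of 9 was lower, beside 6.75% of all measured genes. Igfbp5 was at 173 against 540 CPM, Igfbp4 at 54.5 against 402 CPM and Igfbp7 at 52.4 against 556 CPM. The receptor Igf1r was at 108 against 94.7 CPM. Igfbp2 was at 170 CPM in the members and 228 CPM in the Gng13-positive cells, and 15.1-fold above the 11.2 CPM of stroma.

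None of 28 oxidative phosphorylation genes was called against the other somatic cells, the Gng13-positive cells or stroma. Their median log2 ratios were 0.16, 0.03 and 0.31, beside -0.02, 0.01 and 0.04 for all genes. In the same order, 3.83, 5.7 and 12% of all measured genes were higher and 16, 6.75 and 13.4% lower. Of the apoptosis genes, 4 of 14 were lower than in the other somatic cells (Bcl2l11, Bmf, Pmaip1 and Fas), beside 16% of all measured genes, and none was higher. Of 15 measured genes that respond to cell handling, Dnajb1 was higher and Zfp36 lower than in the other somatic and in the Gng13-positive cells. Of all measured genes 3.83% were higher and 16% lower in the first comparison, and 5.7% and 6.75% in the second. Of 10 measured genes of the Sertoli cell, the male counterpart of the granulosa cell, 4 were higher than in the other somatic cells (Dhh, Ptgds, Clu and Aard), beside 3.83% of all measured genes, and Cst9 was lower. Against the Gng13-positive cells, 3 of 9 were higher (Dhh, Ptgds and Clu) and 4 lower (Cst9, Cst12, Cst8 and Gstm6). Of all measured genes 5.7% were higher and 6.75% lower there. Dhh, the hedgehog ligand that granulosa cells also send to the theca, was at 17.4 CPM (14.3 to 20.9), 10.7-fold higher, and Clu at 819 CPM. Dmrt1, the testis-specific factor, had 0 UMIs in the members.

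**Figure D4:**
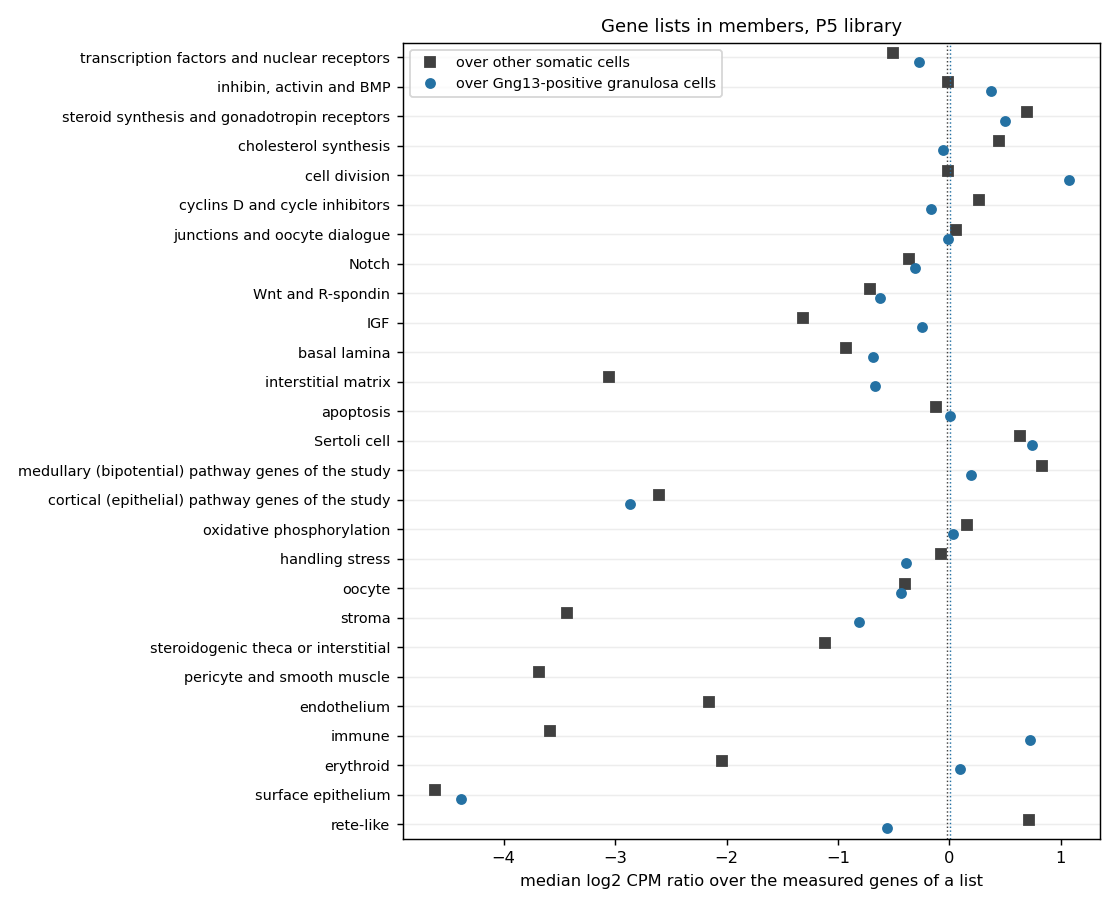
Median log2 CPM ratio of the measured genes of each list, members over all other somatic cells (squares) and over Gng13-positive granulosa cells (circles), for lists with at least 3 measured genes, with dotted lines at the median of all measured genes (-0.02 and 0.01). Cell division stands at 1.07 over the Gng13-positive cells and at -0.01 over the other somatic cells, and the cortical pathway genes lie at -2.86 and -2.60.

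Markers of other cell types were read in the same cells. Beside the counts that follow, 16% of all measured genes were lower and 3.83% higher than in the other somatic cells. All 8 immune markers were lower than in the other somatic cells, summing to 37.0 against 460 CPM, with Lcn2 the most abundant at 11.7 CPM. All 8 endothelial markers were also lower, summing to 22.0 against 101 CPM, led by Egfl7 at 6.00 CPM. After thinning to 3000 UMIs, Tek had a log2 ratio of 0.11, with too few UMIs to be measured. The 18 oocyte genes summed to 55.6 CPM, led by Dppa3 at 12.2 CPM, with Bmp15 and Khdc3 at 0 UMIs and 4 of 11 measured genes lower. Of the 8 theca and interstitial genes 2 of the 3 measured were lower, with Insl3 and Hsd3b6 at 0 UMIs. The 10 stroma markers summed to 504 CPM, led by Col3a1 at 164 CPM, against 9763 CPM in stroma. The 7 surface epithelium genes outside the rule were all lower, at 94.8 against 550 CPM. Of the 8 pericyte genes 7 were lower, at 44.9 against 899 CPM, and of the rete-like genes 1 of 3 measured was lower (Krt8), with Pax2 and Cdh16 at 0 UMIs. No gene of these lists was thus called higher in the members than in the other somatic cells, while Lcn2 was higher than the 2.40 CPM of the Gng13-positive cells.

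Transcripts of red blood cells and neutrophils were found in most classes. The 7 erythroid genes summed to 4084 CPM in the members, 3602 CPM in the Gng13-positive cells and 16260 CPM in the other somatic cells, with Hbb-bs most abundant. S100a9, a neutrophil gene, had a UMI in 57.8% of members, 53.0% of Gng13-positive cells and 40.2% of stroma, against 85.0% of immune cells. After thinning, the shares in the first 3 classes were 21.6, 24.0 and 22.6%, with counting intervals that overlap, and the share in the members is read as background. Of the members, 20 (3.33%) were called doublets by Scrublet, against 1.53% of the other somatic cells, 3.89% of the Gng13-positive cells and 1.14% of stroma.

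Within the members, the 421 cells with a UMI of Amh were set against the 179 cells without one. Amh is a gene of the rule, and cells without it are members only through Nr5a2 and Hsd17b1 (Nr5a2 at 233 CPM without and 147 CPM with Amh), so that what follows describes the selected cells and supports nothing further. Median depth also differed, at 10212 and 8424 UMIs. Of 8789 measured genes, 172 were called higher in the cells with Amh (1.96%) and 100 lower (1.14%). Among the 35 division genes, 24 were higher and none lower, with a median log2 ratio of 1.12 beside -0.03 for all genes. Top2a was at 156 CPM (145 to 168) with Amh and 69.2 CPM (57.1 to 83.2) without. Mki67, the proliferation antigen, was at 65.5 and 26.7 CPM. Inha stood at 1304 CPM (1271 to 1337) and 855 CPM (811 to 901), Inhbb at 133 and 82.0 CPM and Tnni3 at 330 and 177 CPM, all within 2-fold. Hsd3b1 was at 602 CPM in both, and Esr2 at 89.6 and 76.5 CPM. Other lists moved with the split, with Hbb-bt, a haemoglobin chain, at 477 and 176 CPM (median log2 ratio of the 5 measured erythroid genes 0.74) and 2 of 15 handling genes (median -0.55), 1 of 3 measured immune markers and 1 of 2 measured pericyte genes lower, and their part in these differences was not tested.

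Of the genes lower in cells with Amh, Cxcl10 and Cxcl1, chemokines, were at 32.7 against 172 CPM and 12.6 against 63.8 CPM, and Socs3, which dampens cytokine signals, at 23.7 against 90.5 CPM. Akr1c18 was at 25.8 CPM with Amh and 119 CPM without, and Col8a1 at 37.6 and 97.8 CPM. These last genes, which had the largest ratios over the Gng13-positive cells, were thus present in both groups of members but at a higher level without Amh. Igfbp7 was at 29.9 against 117 CPM, Id3 at 138 against 284 CPM and Bmp4 at 39.7 against 82.6 CPM. Kitl was at 248 CPM (234 to 263) with Amh and 366 CPM (337 to 396) without, within 2-fold.

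At the same depth of 3000 UMIs, 232 members kept a UMI of Amh and 365 did not. At least 3 division UMIs were found in 37.5% (31.3 to 44.1) of the first and 20.0% (16.0 to 24.5) of the second, again a description, since Amh chose the cells. Their unthinned depths were 10393.5 and 9127 UMIs. Across the 597 thinned members, all of 1 library, the Spearman correlation with Amh was 0.19 for Inha, 0.18 for the division sum, 0.04 for Esr2, 0.01 for Foxl2 and -0.10 for Kitl. In counts as sparse as these the weak values are not read as relations.

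Between the 160 members with at least 3 division UMIs and the 437 without, 403 of 8785 measured genes were called higher (4.59%, the division genes that define the split included) and 190 lower (2.16%). Cdkn1b was at 91.5 CPM (79.2 to 105) in the first and 166 CPM (153 to 178) in the second, and Foxl2 at 303 and 410 CPM, both within 2-fold. Igfbp5 was called lower, at 88.2 (76.2 to 102) against 217 CPM (203 to 232), and Bmp4 at 21.7 against 66.1 CPM. Hsd3b1 was at 620 and 591 CPM and Inha at 1401 and 1075 CPM. Haemoglobin transcripts moved with this split, with Hba-a1 at 354 and 1323 CPM, and depth with it, at medians of 13098.5 and 8939 UMIs. Of the 15 handling genes 3 were lower as well, with a median log2 ratio of -0.45, and the part of all these in the differences was not tested.

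The same limits were then applied to the other 6 libraries, where they need not pick the same cells. They were met by 86 of 4997 cells at P1 (1.72%, 1.38 to 2.12), against 11.3% at P5. In the embryo, 106 of 4244 cells met them in the E12.5 library (2.50%) and 141 of 8284 in the E16.5 library (1.70%). Fewer than 50 cells did so in the others, with 28 of 7972 cells of E11.5 (0.351%), 27 of 3399 of E18.5 (0.794%) and 1 of 9800 of E14.5 (0.0102%). Which gene brought a cell in also differed. Amh was found in 70.2% of the cells at P5, 41.9% at P1, 8.51% at E16.5 and 93.4% at E12.5, and Nr5a2 in 80.2, 84.9, 97.9 and 7.55% in the same order.

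Some markers were 2-fold higher at P5 than at P1 in the cells that met the limits, where age and library cannot be told apart. Inha was at 449 CPM (407 to 495) at P1 and 1187 CPM (1160 to 1214) at P5, Hsd3b1 at 249 and 602 CPM, and Serpine2, a protease inhibitor, at 395 and 1102 CPM. Within 2-fold, Esr2 was at 46.3 CPM (33.3 to 62.5) and 86.2 CPM, and Foxl2 was at 312 CPM (276 to 350) and 373 CPM (358 to 388). Akr1c14 was at 371 CPM at P1 and 210 CPM at P5. At E16.5 the cells had Foxl2 at 315 CPM but Inha at 113 CPM and Esr2 at 11.6 CPM.

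Endothelial markers were high in the cells that met the limits at E16.5 and P1. At E12.5, 5 of 8 were higher than in the other somatic cells and 1 lower, summing to 294 against 117 CPM. There 8.52% of all measured genes were higher. All 8 were higher than in the other somatic cells at E16.5, summing to 1523 against 226 CPM, beside 7.1% of all measured genes, and 7 of 8 at P1, at 391 against 121 CPM, beside 8.13%, whereas they summed to 22.0 CPM in the P5 members. At P1, 5 of 15 handling genes were also higher, at 21648 against 10706 CPM. The cells at these ages are therefore not read as granulosa cells alone, and the part of both lists in the differences between ages was not tested. The division genes were 26 of 35 lower than in the other somatic cells at P1, summing to 1144 against 3371 CPM, where 11.1% of all measured genes were lower, and 0 of 35 at P5, at 1714 against 1793 CPM.

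The cells at E12.5 were of another kind. They had Amh at 792 CPM (750.5 to 836), but Foxl2 at 4.11 CPM (1.65 to 8.48) and Fst at 20.6 CPM, below the 25.5 and 295 CPM of the other somatic cells of that library. Sox9, a transcription factor of Sertoli cells, was at 373 CPM, Dmrt1 at 33.5 CPM and Dhh at 230 CPM, and 11 of 12 measured Sertoli cell genes were 2-fold higher than in the other somatic cells, beside 8.52% of all measured genes. The Y-linked genes Ddx3y, Eif2s3y, Uty and Kdm5d, looked at after these values were seen, had between 37 and 121 UMIs in the 106 cells, where Ddx3y was at 71.1 CPM against 4.63 CPM in the other somatic cells, and Xist was at 153 against 1263 CPM. Each of the 4 Y-linked genes had 0 UMIs in the cells that met the limits at E16.5, P1 and P5. Xist, transcribed from the inactive X chromosome, was at 2107 CPM in the P5 members.

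**Figure D5:**
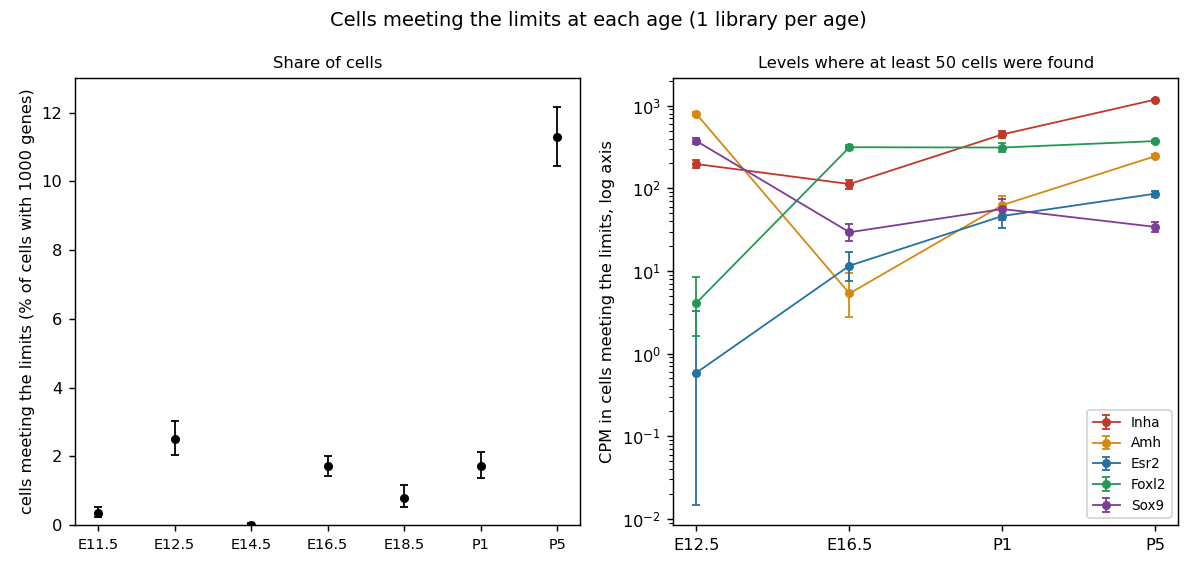
Left, percentage of cells with at least 1000 genes that met the limits in each library, with 95% binomial intervals. Right, CPM (log axis) of 5 genes in those cells at the 4 ages with at least 50 of them, with 95% Poisson intervals, 1 library per age; Inha is highest at P5 (1187 CPM), while at E12.5 Amh (792 CPM) and Sox9 (373 CPM) are high and Foxl2 (4.11 CPM) is low.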

How the data were processed

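Each of the 7 ages was 1 library of pooled gonads, prepared with 10x Genomics v2 chemistry. The authors ran Cell Ranger 3.1.0 on the mm10 reference supplied by 10x Genomics and deposited UMI counts of 31053 genes per called cell, not normalized. Only the P5 matrix gave the members, and the other matrices were used for the ages. The members, gene lists and tests were chosen with earlier results of these data known.

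Classes were defined by UMI limits on single genes, as given with the results; endothelial and immune cells had at least 3 UMIs of Cldn5, Pecam1 and Cdh5, or of Tyrobp, Fcer1g and Ptprc. Counts were summed over the cells of a class. Levels have exact Poisson intervals, ratios exact conditional intervals and shares of cells Clopper-Pearson intervals, and where a share was 0 the share that 3 cells would give is printed as its limit. A class with 0 UMIs was set to 3 UMIs in ratios. Genes were measured at 50 UMIs over both classes. Cells were thinned to 3000 UMIs without replacement, and shallower cells were left out of the shares (3 members). Doublets were kept, and Scrublet (30 principal components, threshold set automatically) called 111 of 6150 cells.

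Genes were named if they belong to the rule or to 1 of 27 lists, or if they had 1 of the 20 highest or lowest ratios at 50 CPM or more in the comparisons with other somatic and Gng13-positive cells. Genes outside these lists that are named within the members split by Amh or by division, S100a9, Serpine2 and the Y-linked genes were chosen after their values were seen. Gene positions are from GENCODE vM21 and promoters from RefSeq (GRCm38.p6), in which 6 of 8 genes were found. Code was tested on simulated counts. Python 3.11.15, numpy 2.4.6, scipy 1.17.1, pandas 2.3.3, scanpy 1.11.5 and matplotlib 3.10.9 were used. Alternatives changed the gene minimum, the marker sum, the germ cell limit, mitochondrial share, doublets, scaling, depth and the filter on low counts. Some members of the lists are not reported here by name.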

Additional observations from a re-analysis of the deposited data

How the results depend on the processing

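The share of members moved by more than its counting interval only when 3 UMIs of the marker genes were asked for, to 8.15% of cells, and otherwise lay between 10.5 and 12.1%. Of the genes named and called, between 169 and 187 of 187 kept their call against the other somatic cells, between 94 and 136 of 136 against the Gng13-positive cells and between 157 and 182 of 182 against stroma; most of the losses followed thinning to 3000 UMIs, where 10, 36 and 22 fell below 50 UMIs. Thinning left 341 genes higher and 340 lower than in the Gng13-positive cells. With no filter on low counts, 1431 genes were higher than in the other somatic cells, 1064 higher and 2425 lower than in the Gng13-positive cells, and 2632 higher and 2575 lower than in stroma, since genes of a few UMIs then enter. The log2 ratio changed sign for Car2 against the Gng13-positive cells (0.27 without called doublets and 0.15 after thinning) and, after thinning, for Jag2 (0.41) and Tek (0.11) against the other somatic cells; after thinning these 3 had too few UMIs to be measured, and for doublets the cause was not tested. The alternatives for stroma were chosen after seeing the data. No paired analysis was possible because each age is 1 library with no replicate. With 1 library, the spread between animals is unknown, free RNA is part of every level, and genes of few UMIs, such as Fshr at 18, have wide intervals.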
